A study of Caenorhabditis elegans with 2 samples.

Results

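The peaks described here are weak ChIP-seq peaks of the tagged homeodomain protein CEH-82 that lie inside exons of the nematode Caenorhabditis elegans. Of 30000 entries in the authors' relaxed peak list for both replicates pooled, 27933 overlapped no peak of the list that the authors thresholded by irreproducible discovery rate (IDR), and these are called weak peaks. A weak peak was counted as exonic when its summit, the single base of highest signal, lay in an exon of a protein-coding gene and outside every promoter window, drawn from 1000 bp before to 200 bp after each annotated start of a protein-coding transcript. This gave 5386 weak exonic peaks, beside 7198 weak peaks in introns, 8539 in the promoter windows and 6810 elsewhere. They were selected on measured values, since low pooled signal kept them out of the thresholded list, so their signal and their place outside promoters are described and not tested.

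The data came from ChIP-seq on whole first-stage (L1) larvae of both sexes, pooled, of the strain OP212. These animals had the genotype unc-119(ed3) III and the array ddEx58, and stably expressed F45C12.2, the gene ceh-82, with a C-terminal GFP-FLAG tag. There was 1 group with 2 biological replicates from this 1 line, chromatin was sheared by sonication, and no untagged strain, input or other condition was analysed here. The labels leave the age of the larvae as unknown, and they do not name the promoter that drives the tagged gene.

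Homeodomain proteins are transcription factors that bind short AT-rich DNA sites through a helix-turn-helix fold, and many act in fate decisions of worm neurons and muscle. A ChIP-seq peak marks a stretch of genome where immunoprecipitated fragments pile up, and IDR keeps the peaks whose ranks are similar in replicate experiments. Relaxed lists are made long on purpose so that IDR has background to compare with, and the authors name theirs as peaks and background. A weak entry in an exon can therefore be a low level of binding or no binding, and the lists do not tell these apart.

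The coding sequence under the summit is shown for 6 weak exonic peaks and for the thresholded exonic peak of highest signal, to let the strongest and best-recovered ones be read beside a peak above the threshold. The choice took the highest pooled signals and the best ranks in both replicates among summits whose 60 surrounding bases were all coding and in 1 gene. Each is 60 bases on the gene's strand, 5′ to 3′, from the RefSeq sequence of WBcel235 (ce11), and capitals mark letters that match a searched motif on either strand.
dpy-22: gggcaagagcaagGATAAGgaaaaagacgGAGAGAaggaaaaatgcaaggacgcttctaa
cla-1: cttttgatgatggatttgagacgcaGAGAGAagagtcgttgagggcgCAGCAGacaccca
Y56A3A.22: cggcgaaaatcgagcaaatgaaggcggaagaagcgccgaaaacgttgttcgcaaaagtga
dos-3: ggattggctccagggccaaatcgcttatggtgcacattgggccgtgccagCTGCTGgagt
W06H8.6: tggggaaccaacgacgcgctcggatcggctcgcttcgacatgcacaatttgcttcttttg
C07A9.9: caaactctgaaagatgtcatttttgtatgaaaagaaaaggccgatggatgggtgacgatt
pks-1 (thresholded): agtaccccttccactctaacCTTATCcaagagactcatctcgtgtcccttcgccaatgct

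In that order the windows were chrX:9814564-9814623 (minus strand), chrIV:7611610-7611669 (plus), chrIII:11921890-11921949 (plus), chrIII:835894-835953 (minus), chrV:6224054-6224113 (minus), chrIII:9665179-9665238 (minus) and chrX:5429512-5429571 (plus). The dpy-22 and cla-1 windows held GAGAGA, a repeat found in 30.6% of the 100 bp windows at thresholded summits. The pks-1 window, from a gene for a polyketide synthase, held GATAAG (printed as its complement CTTATC) and none of the other searched motifs. The windows of Y56A3A.22, W06H8.6 and C07A9.9 held none of the 14 motifs searched. A match is a description of the letters and not a binding site.

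The weak exonic peaks had low signal, the authors' score for a peak. Their median signal was 5.81 (interquartile range 5.05 to 7.05, lowest 4.47, highest 21.8), beside 5.95 for weak intronic peaks, 6.38 in promoter windows and 6.17 elsewhere. Every one was 230 bp wide. Of the 5386, 2124 (39.4%) were above the median signal of the pooled list, beside 43.2% of weak intronic and 51.9% of weak promoter peaks. Their median -log10 q value was 0.24 (interquartile range 0.13 to 0.52), so most had weak statistical backing in the authors' own scores. It was 0.27 for weak intronic peaks, 0.35 in promoter windows and 0.31 elsewhere. The highest -log10 q value in the list, 3.81, which every thresholded peak had, was reached by 32 weak exonic peaks (0.594%) and by 194 weak intronic peaks (2.70%). Just below the threshold, the strongest weak exonic peaks, in dpy-22 and ftt-2, had signals of 21.8 and 21.5. Above it, only 12 of the 2052 thresholded peaks met the same exon rule, beside 5386 of the 27933 weak peaks. The signals of the 12 ran from 23.4 at F21C10.3 to 159 at pks-1.

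Exons held weak summits at a lower density than other sequence, at 24.8 per 100 kb, against 26.5 in introns, 32.5 in promoter windows and 27.1 elsewhere. Eligible exonic sequence, meaning exons outside the windows, made up 21.7% of the nuclear genome. Their median distance to the nearest thresholded summit was 13096 bp, beside 14081 bp for weak peaks in promoter windows, 15042 bp in introns and 17778 bp elsewhere. Within 1000 bp of one lay 3.42% of weak exonic peaks, 8.30% of those in promoter windows, 3.13% in introns and 3.52% elsewhere. Only 6 of the 5386 overlapped another weak exonic peak.

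Recovery in the single replicates was the first property examined that the exon rule did not use. A peak was called recovered when it overlapped a peak of that replicate's own relaxed list by at least 1 bp. Both replicates went into the pooled list, so the recovery of any weak peak is not independent of its choice, but all 4 places were chosen on the pooled signal in the same way and can be compared. The list of replicate 1 held 16551 peaks and that of replicate 2 held 30000, which bears on every share below.

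Weak exonic peaks were recovered less often than weak peaks at the other places in both replicates. In replicate 1, 1104 of 5386 were recovered (20.5%, 95% Wilson interval 19.4 to 21.6), against 25.1% of all weak peaks, 23.8% in introns, 28.3% in promoter windows and 26.0% elsewhere. In replicate 2, 3592 were recovered (66.7%, 65.4 to 67.9), against 71.2% of all weak peaks, 69.9% in introns, 74.5% in promoter windows and 72.1% elsewhere. Both replicates recovered 480 (8.91%, 8.18 to 9.70), against 14.3% of all weak peaks, 12.8% in introns, 18.3% in promoter windows and 15.2% elsewhere. Neither replicate recovered 1170 (21.7%), against 18.03% of all weak peaks. Replicate 1 alone had 624 (11.6%), against 10.77% of all weak peaks, and replicate 2 alone had 3112 (57.8%), against 56.9%.

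All 9 differences passed a two-sided Fisher's exact test with Benjamini-Hochberg adjustment over the 9. By Fisher's exact test for recovery in both replicates, the odds ratio was 0.668 against introns (95% interval 0.594 to 0.750, adjusted p = 8.45e-12), 0.437 against promoter windows (adjusted p = 2.26e-54) and 0.545 against peaks elsewhere (adjusted p = 1.27e-25). By Fisher's exact test against introns it was 0.827 in replicate 1 (0.760 to 0.901, adjusted p = 1.56e-05) and 0.862 in replicate 2 (0.799 to 0.930, adjusted p = 0.000133). These tests count peaks of 2 libraries, so they cover the counting of peaks and not differences between cultures of worms. As a reference level, an interval of 230 bp centred on an eligible exonic base met a peak of replicate 1 at 6.25% of such bases and a peak of replicate 2 at 11.2%. Both replicates went into the pooled list, so how far recovery lies above this level is not independent of the choice.

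**Figure D1:**
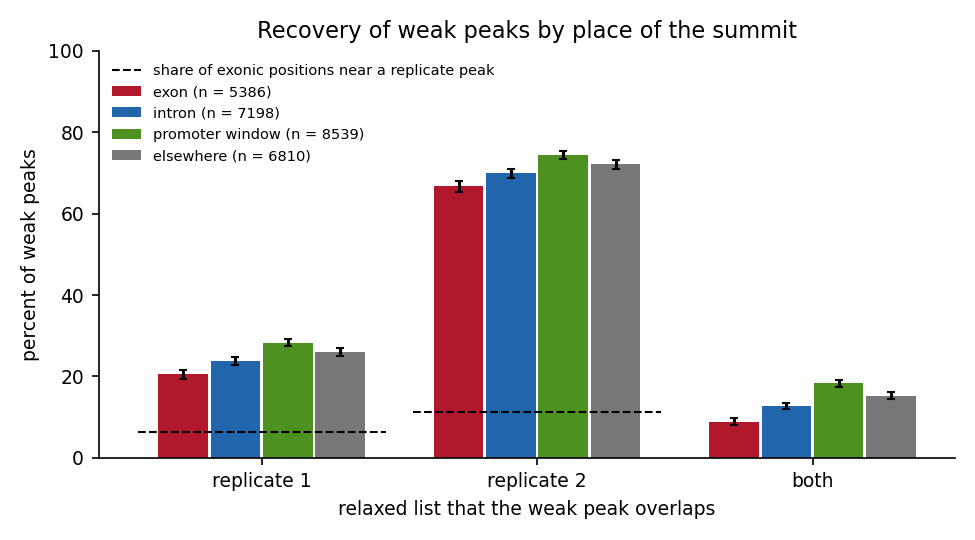
Percent of weak peaks (y axis) that overlap the relaxed list of replicate 1, of replicate 2, or both (x axis), for summits in exons, introns, promoter windows and elsewhere; bars are shares, error bars are 95% Wilson intervals, and dashed lines give the share of eligible exonic positions within reach of a peak of that replicate. The exonic bar is the lowest in each group, at 20.5%, 66.7% and 8.91%. Both replicates went into the pooled list that gave these peaks.

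Among 4 signal classes, only the strongest kept calls, in 7 of its 9 comparisons. The places differ in pooled signal, so the comparison was repeated within 4 signal classes, which divide all weak peaks equally by pooled signal, a split chosen after seeing the data. In the weakest class (signal 4.47 to 5.15), both replicates recovered 2.28% of 1536 exonic and 2.59% of 1928 intronic peaks. In the second class and the third the exonic shares were 2.90% and 10.3%, and the intronic ones 4.63% and 11.0%. None of the 27 comparisons in these 3 classes passed the exact test, with adjusted p from 0.0696 to 0.967. Not all of the odds ratios were nearer to 1. For recovery in both replicates against introns they were 0.876, 0.616 (95% interval 0.426 to 0.890) and 0.929 in the first class, the second and the third, beside 0.668 over all weak peaks, and each class holds fewer peaks.

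In the strongest class (7.74 to 22.3), both replicates recovered 249 of 862 exonic peaks (28.9%, 26.0 to 32.0) against 36.8% of intronic, 43.7% of promoter and 39.5% of other peaks. The odds ratios were 0.697, 0.523 and 0.622, and all 3 passed Fisher's exact test (adjusted p = 0.000128, 4.88e-14 and 2.31e-07). Recovery in replicate 1 also passed Fisher's exact test in this class, at 34.2% against 41.4% in introns (odds ratio 0.738, adjusted p = 0.000907). Recovery in replicate 2 was 93.4% against 94.3% in introns and did not pass (odds ratio 0.847, 95% interval 0.601 to 1.19). Exonic peaks were also fewest in this class, at 862, where promoter windows had 2679. Within the classes signal was not matched further.

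**Figure D2:**
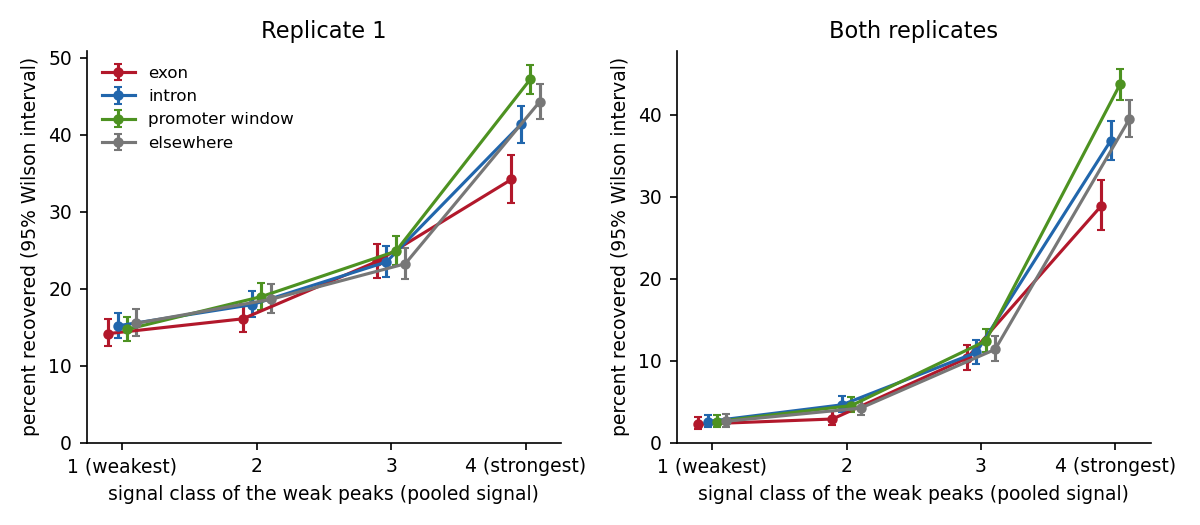
Percent of weak peaks recovered (y axis, 95% Wilson intervals) in replicate 1 and in both replicates, by signal class of the weak peaks (x axis), for 4 places of the summit. The 4 lines lie close together in the 3 weaker classes, and in the strongest class the exonic line is lowest, at 34.2% and 28.9%.

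Exonic peaks were also recovered less often than intronic ones when the relaxed list of a single replicate gave the peaks. Applying the exon rule to the list of replicate 1 alone gave 2922 weak exonic peaks, of which replicate 2 recovered 17.01%, against 25.6% of intronic peaks chosen in the same way (odds ratio 0.597, adjusted p = 4.64e-17, Fisher's exact test). Applying it to replicate 2 alone gave 5362, of which replicate 1 recovered 8.97% against 13.3% (odds ratio 0.644, adjusted p = 4.24e-14, Fisher's exact test). These exonic shares lay nearer to the reference levels of eligible exonic bases than the shares from the pooled list did. The levels were 11.2% for replicate 2 and 6.25% for replicate 1. Peaks that overlap the thresholded list were left out here too, and that list rests on both replicates, so this form is not independent of the choice either, and the places were not matched for signal.

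Weak exonic summits were unevenly placed along the gene and lay more often near its 3′ end. Of 5339 summits with a single host gene, 1779 (33.3%, 32.1 to 34.6) were in the last of 5 equal parts of the gene span, which held 28.3% of eligible exonic bases. The ratio of these shares was 1.18 (two-sided exact binomial test, adjusted p = 5.77e-15 over 18 classes). The second part and the third held fewer summits than their bases, with ratios of 0.913 (exact binomial test, adjusted p = 0.00469) and 0.905 (adjusted p = 0.00101). The first part (ratio 0.963) and the fourth (0.952) did not pass. This test treats every eligible base as equally able to hold a summit, and mappability was not taken into account.

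Untranslated sequence held more of the summits than its length, and coding sequence fewer. Of 5325 summits that could be given a kind, 4438 were coding (83.3% against 88.2% of bases, ratio 0.945, exact binomial test, adjusted p = 4.84e-24). The 3′ untranslated regions held 794 (14.9% against 10.6%, ratio 1.41, exact binomial test, adjusted p = 1.05e-21), and the 5′ untranslated regions 93 (1.75% against 1.26%, ratio 1.39, adjusted p = 0.00469). The 5′ regions here are the parts farther than 200 bp from a start, since the rest lies in the windows. Of the 794 summits in 3′ untranslated regions, 717 lay in the last part, which held 1054 coding summits as well. Within the last part, 3′ untranslated sequence held 35.2 summits per 100 kb and coding sequence 26.1, while coding sequence of the other parts held 22.2 to 23.5. The density in 3′ untranslated sequence there was higher than the 32.5 per 100 kb of the promoter windows, a comparison for which no test was run.

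**Figure D3:**
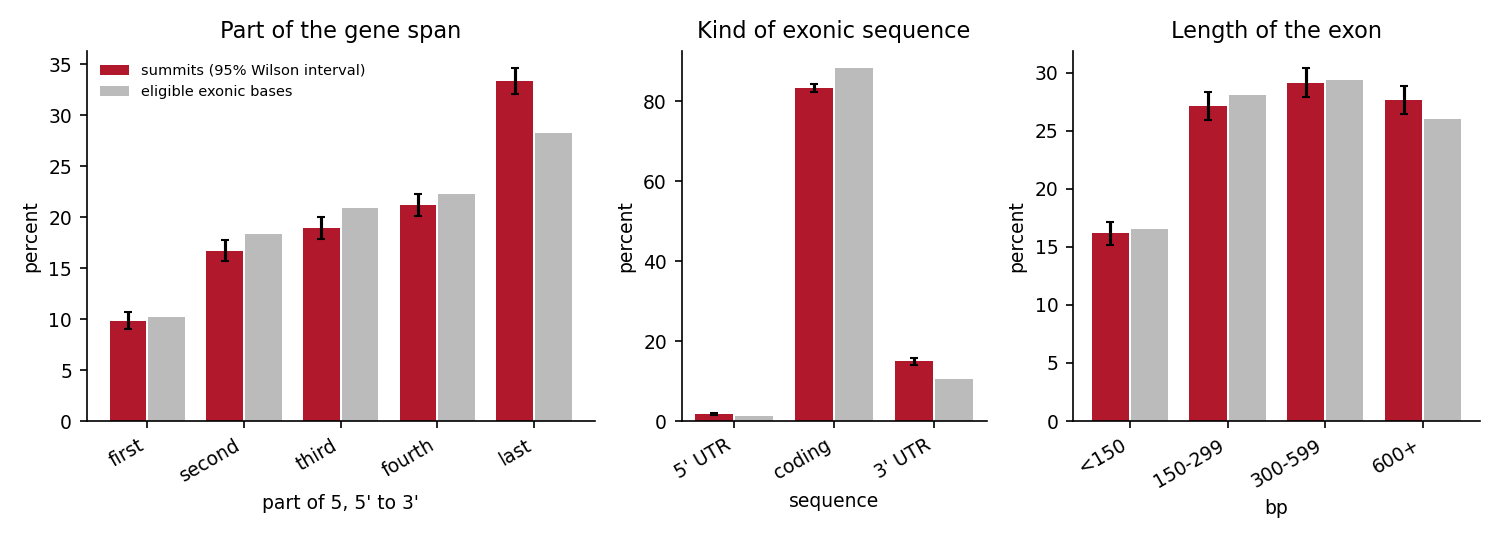
Percent of weak exonic summits (red, 95% Wilson intervals) and of eligible exonic bases (grey) by part of the gene span (5 equal parts), kind of exonic sequence and exon length in bp. The last part (33.3% against 28.3%) and 3′ untranslated sequence (14.9% against 10.6%) stand above their bases, and coding sequence (83.3% against 88.2%) stands below.

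Recovery was compared between these kinds of exonic sequence without a test. Both replicates recovered 100 of the 794 summits in 3′ untranslated regions (12.6%, 10.5 to 15.1) and 364 of the 4438 coding ones (8.20%, 7.43 to 9.05). For the 93 in 5′ untranslated regions the share was 12.9% (7.54 to 21.2). The median signal was 5.75 in coding sequence, 6.12 in 3′ and 5.96 in 5′ untranslated sequence, so signal moved with recovery, and its part in the result was not tested. Among single-host summits recovered in both replicates, 21.0% were in 3′ untranslated regions, a ratio to bases of 1.99 (exact binomial test, adjusted p = 2.24e-10), and 36.9% were in the last part of the gene span, a ratio of 1.305 (adjusted p = 0.000274).

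Of 4 classes of exon length, 1 passed. Exons under 150 bp, from 150 to under 300 bp and from 300 to under 600 bp had ratios of 0.976, 0.965 and 0.992, none of which passed. Exons of at least 600 bp held 27.6% of summits on 26.0% of bases (ratio 1.06, exact binomial test, adjusted p = 0.012), a call that was lost with either replicate alone (1.04 and 1.07) and with a window of 2000 bp upstream (1.04). The median host exon was 346 bp long and the median summit lay 75 bp from its nearest edge. The 230 bp peaks therefore often ran into introns, and 2048 (38.02%) were wholly exonic.

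The X chromosome and chromosome III had more weak exonic summits than their eligible exonic bases, with 1023 (19.2% against 16.4%, ratio 1.17, exact binomial test, adjusted p = 3.29e-07) and 858 (16.1% against 14.6%, ratio 1.10, adjusted p = 0.00469). Chromosomes IV (ratio 0.879), II (0.917) and V (0.925) had fewer and passed, and chromosome I (1.03) did not pass. With the peaks of replicate 1 alone the ratios of II, IV and V were 0.956, 0.944 and 0.930 and did not pass, while those of III (1.11) and X (1.12) did. With only the peaks recovered in both replicates the X ratio was 1.23 and did not pass the exact binomial test (adjusted p = 0.0681).

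Weak exonic peaks were spread over many genes. Of 18371 protein-coding genes with eligible exonic bases, 4246 hosted at least 1 (23.1%). A single peak was found in 3425 of these, 821 had at least 2, and 32 had at least 5, which together held 186 peaks. Hosts had more sequence to be hit in, with a median of 1469 eligible bases against 781 in other genes. In 463 host genes at least 1 peak was recovered in both replicates.

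Genes with a thresholded peak in their own promoter window hosted weak exonic peaks more often. Of 1713 such genes 621 were hosts (36.3%, 34.0 to 38.6), against 3625 of 16658 without one (21.8%, 21.1 to 22.4). The difference was found in each of 4 equal classes of genes by eligible bases. In the shortest class the densities were 40.8 and 21.99 per 100 kb, in the second 44.5 and 21.2, in the third 35.3 and 23.4, and in the longest 33.0 and 24.5. Introns of the same genes also held more weak summits, at 31.8 per 100 kb with a start peak and 25.8 without. Both lists come from the same libraries, and no test was run on this difference.

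The strongest weak exonic peaks lay in genes of varied function. The first was in exon 13 of 19 of dpy-22 (chrX:9814479-9814708, pooled signal 21.8), which encodes the MED12 subunit of Mediator, the complex that links transcription factors to RNA polymerase. It ranked 2527 in replicate 1, with a signal of 5.12, and 2161 in replicate 2, with a signal of 16.6, where the scores of the lists are on different scales. The peak in ftt-2, for a 14-3-3 protein that binds phosphorylated partners, was in the 3′ untranslated part of its last exon (signal 21.5, ranks 3047 and 2116). In swt-5, for a sugar transporter of the SWEET family, the peak was in a coding exon of 63 bp (signal 21.3, ranks 1511 and 2260). These 3 were recovered in both lists. Of the 5386 weak exonic peaks, 31 met a peak among the strongest 2052 of replicate 1 and 0 among those of replicate 2.

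Further strong ones were in cla-1 (21.0), for the active zone protein Clarinet, F55C7.2 (20.7), bed-2 (19.6), for a BED zinc finger protein, dmd-7 (18.9), for a DM domain factor, and unc-62 (18.5), for a TALE homeodomain factor of the Meis family. The list of 12 ends with mom-5 (18), for a Frizzled receptor of Wnt signalling, F22D3.4 (17.8), sinh-1 (17.6) and zfr-1 (17.1). Of the 12, 4 were in coding, 5 in 3′ untranslated and 3 in 5′ untranslated sequence. The peaks of dmd-7, F22D3.4 and sinh-1 overlapped none of the 16551 peaks of replicate 1, and ranked 2471, 2230 and 2392 in replicate 2. That of F55C7.2 ranked 10960 in replicate 1 and 2360 in replicate 2.

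The peaks best placed in both replicates were those of swt-5, zfr-1, cla-1, seu-1, act-4, ints-3, dpy-22 and mdf-2. The seu-1 peak, in a coding exon, had a pooled signal of only 10.6 and ranks of 2306 and 2807. The act-4 peak, in the last exon of an actin gene, had a signal of 14.5 and ranks of 2419 and 2928. The peaks of ints-3, for an Integrator subunit (14.7, ranks 2461 and 2907), and mdf-2, for the spindle checkpoint protein MAD2 (14.8, ranks 1865 and 4620), were in 3′ untranslated sequence. Of these 8, 4 were also among the 12 of highest pooled signal.

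Genes with the most peaks included those of giant muscle proteins and of a histone acetyltransferase. The giant muscle protein genes unc-22, for twitchin, and unc-89, for obscurin, held 9 and 8, on 22558 and 24968 eligible bases, which is 0.399 and 0.320 per kb. The 9 peaks of unc-22 had signals from 4.47 to 7.13, and replicates 1 and 2 recovered 3 and 5 of them. The 8 peaks of cbp-1, for the CBP/p300 histone acetyltransferase, fell on 6924 bases, which is 1.16 per kb. Their signals ran from 5.41 to 13.4. Replicate 2 recovered all 8, replicate 1 recovered 3, and the promoter window of cbp-1 held a thresholded peak with a signal of 92.5. W06H8.6, pac-1, lin-59, for a SET domain protein related to ASH1, and ubr-4, for a ubiquitin ligase, held 7 each. The eighth place was shared by 8 genes with 6 peaks, among them din-1, for a nuclear receptor corepressor, mdt-15, lrp-2, spc-1, unc-10 and unc-73. Of the 7 in W06H8.6, 6 lay in 3′ untranslated sequence that a noncoding gene overlaps, so they cannot be given to one of the 2 genes.

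**Figure D4:**
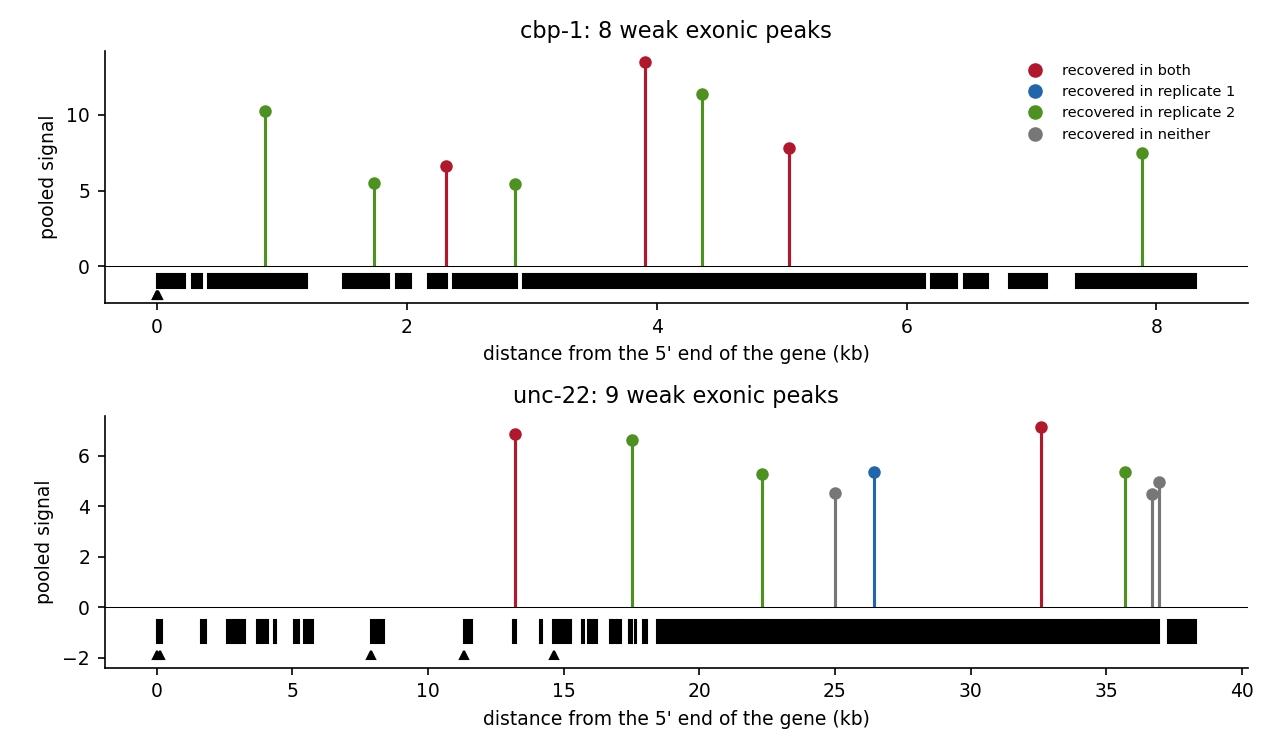
Pooled signal (y axis) of each weak exonic peak against distance from the 5′ end of the gene in kb (x axis) for cbp-1 and unc-22, with exons as black boxes, annotated starts as triangles and colour for the replicates that recovered the peak. The 8 cbp-1 peaks reach 13.4 and all were recovered in replicate 2, and the 9 unc-22 peaks stay at or below 7.13.

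By density, among genes with at least 5 peaks, hlh-30 came first at 2.45 per kb. It encodes the TFEB factor of autophagy and lysosome genes. Of its 5 peaks, 2 overlap each other and meet the same peak of replicate 2, and counted once they would leave it with 4 and out of this order. It was followed by epc-1 (2.24), for an enhancer of Polycomb protein, pdfr-1 (2.04), for a neuropeptide receptor, W06H8.6 (1.92), lin-59 (1.67), mdt-15 (1.52), for a Mediator subunit of lipid metabolism, glp-4 (1.501), for a valyl-tRNA synthetase, and unk-1 (1.48). Recovery differed among these genes, and its relation to density was not tested. Replicate 2 recovered 4 of 5 peaks in hlh-30 and 0 of 5 in glp-4, while replicate 1 recovered 2 of 5 and 3 of 5. Both replicates recovered only 1 of the hlh-30 peaks and none of those in glp-4, epc-1, pdfr-1 or mdt-15.

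The tagged gene ceh-82 had 0 weak exonic peaks on 671 eligible bases in its own exons. The strain is mutant for unc-119, a gene often used as a marker of transgenic worms, and the labels do not say whether the array carries a copy of it. In unc-119 there was 1, in the 3′ untranslated part of exon 5 of 5 (chrIII:10908727-10908956, signal 8.83), recovered in both replicates at ranks 3917 and 5750.

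Gene groups differed in how densely their exons held weak peaks. The groups were lists made from gene names, and they are described beside the 24.9 peaks per 100 kb over all protein-coding genes (a peak in exons of several genes is counted for each), with no test. Respiratory chain and ATP synthase genes had the highest density of the 26 lists, at 82.7 per 100 kb, with 15 of 29 genes as hosts (51.7% against the 23.1% of all genes). Their introns held 22.9 per 100 kb, near the 26.5 of all genes. The strongest peaks were in the cytochrome c oxidase genes cox-4 (signal 14.9), cox-5A (9.76) and cox-5B (9.42). That of cox-4 was recovered in both replicates, the one peak of the 20 in this list for which this was so. The promoter windows of cox-4, cox-5A and cox-5B also held thresholded peaks, with signals of 59.2, 243 and 125. How far such start peaks go with the density of this list was not tested.

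Among other genes of basic cell functions, those for ribosomal proteins and the proteasome were dense on few bases. Ribosomal protein genes held 8 peaks on 13759 eligible bases, at 58.1 per 100 kb, and proteasome genes 10 on 23682, at 42.2. The ribosomal peaks lay in 8 of 46 genes (17.4%, against 23.1% of all genes) and the proteasome ones in 10 of 26 (38.5%). The ribosomal ones were led by rpl-35 (10.6) and rps-7 (6.89), both recovered in both replicates. The rps-7 peak was low in both lists, at rank 14266 of 16551 in replicate 1 and 29230 of 30000 in replicate 2. The proteasome ones were led by pbs-4 (8.49) and rpn-1 (8.16), found in replicate 2 alone. Translation factor genes held 12, at 33.4, of which the strongest, in the elongation factor gene eef-1G (11.3), was recovered in both. Aminoacyl-tRNA synthetase genes stood at 29.5, among them lars-2 (7.91). Splicing factor genes, at 25.5 and led by prp-18 (10.7), and chaperone genes, at 23.5 and led by dnj-1 (10.1), were near the 24.9 of all genes. Histone genes had 6 with eligible bases and 1 peak, in his-71 (5.33).

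Genes that control transcription and chromatin also stood above all genes in density. Chromatin regulator genes held 78 peaks, at 39.1 per 100 kb, in 38 of 81 genes (46.9%, 36.4 to 57.7, against 23.1% of all genes). Their median of eligible bases was 2045, against 881 over all genes. Of the 78, 11 were recovered in both replicates, beside 483 of 5433 over all protein-coding genes, and no test was run on this. After dpy-22, the list of transcription and Mediator genes, at 31.6 per 100 kb, was led by taf-4 (10.2), for a subunit of the general factor TFIID. The strongest chromatin peaks were in set-25 (14.9), for a histone H3 lysine 9 methyltransferase, cbp-1 (13.4) and chd-7 (11.6), for a chromodomain helicase. Those of set-25 and cbp-1 were recovered in both replicates, and that of chd-7 in replicate 2 alone. Homeobox genes, the family of ceh-82 itself, held 32 peaks at 30.9 per 100 kb. These lay in 23 of 93 genes (24.7%, 17.1 to 34.4), near the 23.1% of all genes. In this list unc-62 was followed by zag-1 (10.4) and ceh-10 (9.81). Nuclear hormone receptor genes held 81 in 60 of 267 (22.5%, against 23.1% of all genes), at 27.8, led by nhr-40 (13.7), nhr-21 (11.4) and nhr-31 (11.0).

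Genes of nerve and muscle also stood above all genes in density. Ion channel and synaptic genes held 75 peaks in 38 of 86 genes (44.2%, against 23.1% of all genes), at 31.6 per 100 kb. Their median of eligible bases was 1938, against 881 over all genes. The strongest were in unc-10 (12.9), for the active zone protein RIM, in the potassium channel gene twk-18 (10.4) and in gar-3 (9.996), for a muscarinic receptor. Neuropeptide genes stood at 37.0 with 18 peaks, led by nlp-14 (12.1), but only 16 of 129 were hosts (12.4%, 7.78 to 19.2, against 23.1% of all genes). Muscle sarcomere genes stood at 28.8 with 53 peaks in 25 of 44 genes (56.8%, against 23.1% of all genes), on a median of 1250 eligible bases. They were led by act-4, mlc-1 (10.5), for a myosin light chain, and unc-87 (10.4). Genes named for glutamine and asparagine rich sequence stood at 33.7, led by pqn-29 (11.5). In ion channel and sarcomere genes the introns were denser than the exons, at 38.02 and 37.1 per 100 kb.

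Large extracellular and cytoskeletal genes hosted often but at low density. Of 26 genes for cadherins and other adhesion proteins, 17 were hosts (65.4%, against 23.1% of all genes), at 23.5 per 100 kb. They were led by apx-1 (11.8) and lin-12 (10.9), a ligand and a receptor of Notch signalling. Basement membrane genes had 13 hosts of 22 (59.1%) at 18.9, led by the fibrillin-like gene mua-3 (10.3). Spectrin and linker genes had 12 of 21 (57.1%) at 19, led by spc-1, for alpha spectrin (8.47). The genes of these lists are long, with medians of 4074, 4978 and 6453 eligible bases in that order, against 881 over all genes. Their introns held 31.3, 34.3 and 35.9 per 100 kb. Lipoprotein and lipid synthesis genes stood at 22.9 with fasn-1 (9.97), for fatty acid synthase, in front, and nuclear pore genes at 20.8, led by ran-2 (8.85).

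The large families of environmental and degradation genes were lowest. Chemoreceptor genes held 170 peaks in 163 of 1299 genes (12.5%, 10.9 to 14.5, against 23.1% of all genes), at 17.8 per 100 kb. The strongest, in srx-80 (14.9), ranked 2608 in replicate 2 and was not recovered in replicate 1. C-type lectin genes stood at 16.3, cuticle collagen genes at 16.6 and F-box genes at 12.4 per 100 kb, with clec-223 (9.19), col-123 (9.78) and fbxa-118 (9.90) in front. The introns of chemoreceptor and F-box genes were also low, at 16.8 and 9.52. MATH and BTB domain genes, at 23.3 and led by math-42 (8.97), were nearer to all genes.

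**Figure D5:**
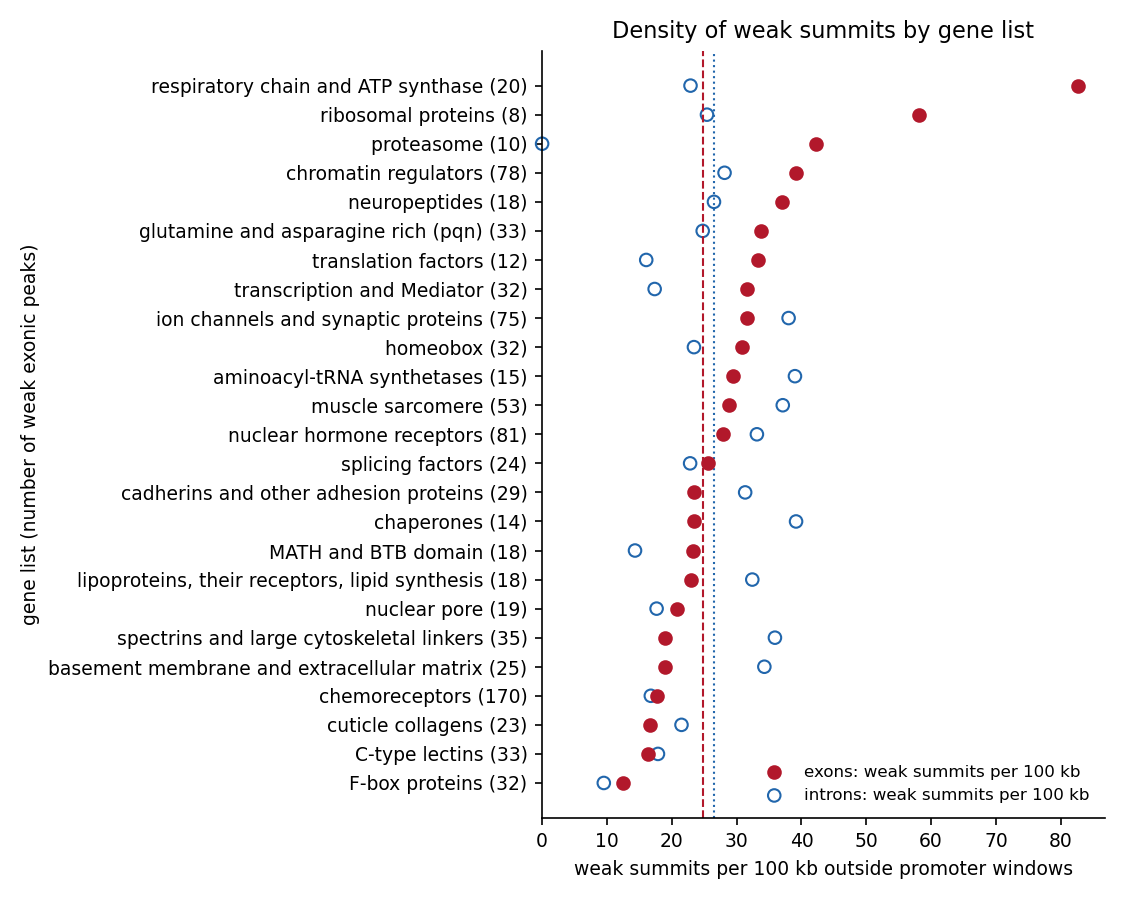
Weak summits per 100 kb outside promoter windows (x axis) in exons (filled) and introns (open) for each gene list with at least 10000 eligible exonic bases, with the number of weak exonic peaks in brackets; dashed and dotted lines give all protein-coding genes, at 24.9 for exons and 26.5 for introns. Respiratory chain genes are highest in exons at 82.7 and F-box genes lowest at 12.4.

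The sequence under weak exonic summits was compared with that of exons at large. The mean G and C content of 100 bp at the summits was 40.4% ± 7.53 (SD over 5386 windows), beside 40.1% ± 7.54 over 217257 tiles of eligible exonic sequence. It was 36.6% at 300 bp to either side, where windows often reach introns, and 48.97% at thresholded summits. The homeodomain core TAATTA was in 2.79% of weak exonic windows (2.38 to 3.26) and in 2.75% of all exonic tiles. The short site TAAT was in 52.9% against 53.6%. For these 2 motifs the interval of the weak exonic windows held the value of the tiles. The variant CAATTA was less frequent than in tiles, at 6.18% (5.57 to 6.86) against 7.04%. Windows at thresholded summits held these homeodomain strings less often than tiles did, with TAATTA in 1.32%, TAAT in 30.5% and CAATTA in 2.44%. No test was run on motifs, which were searched on both strands.

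GAGAGA and GCGCGC, the motifs that thresholded windows held most often relative to exonic tiles, were more frequent in weak exonic windows than in tiles. GAGAGA was in 6.18% (5.57 to 6.86) against 5.45% of tiles, and in 30.6% of thresholded windows. Its share was 5.08% in the weakest signal class, 6.21% and 6.18% in the next ones and 8.12% in the strongest, and it was in 9.17% of windows recovered in both replicates. GCGCGC was in 0.427% (0.285 to 0.640) against 0.183% of tiles and 11.7% of thresholded windows, and windows 300 bp to the right and left of the same summits held it in 0.464% and 0.371%. The other motifs shown in the sequences were CAGCAG in 5.40% against 5.28% and GATAAG in 3.97% against 4.18%. AAAAAAA was in 8.95% (8.22 to 9.74) against 8.10%. The strings TGATTG (8.37% against 8.69%), CACGTG (2.27% against 2.32%), TGACGT (3.70% against 3.68%), GTAAACA (0.650% against 0.746%), GAANNTTC (6.61% against 6.68%) and GGAGGA (5.98% against 5.88%) completed the 14. Weak exonic windows thus lay much nearer to exonic tiles than to thresholded windows in these 2 repeats and in G and C content.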

How the data were processed

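Peaks came from 2 ChIP-seq replicates, per the labels. The authors called peaks on ce11 for each replicate and for both pooled and thresholded them by IDR, per the file listings. No label or listing names the aligner, the peak caller or its settings, which are thus not given in the sources used here. Each deposited list has a signal per peak, which is never negative and differs in scale between lists, the −log10 of the q value as the authors calculated it, and the summit. Signal was used within a list only. The ce10 lists were not used. Read depth is unknown, and 95% Wilson intervals cover counting only.

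Summits were placed with the WBcel235 annotation (Ensembl release 115) and sequence (RefSeq) on 6 nuclear chromosomes. A base coding in any transcript counted as coding. Recovery was tested with Fisher's exact test, two-sided (Benjamini-Hochberg over 9) and place by two-sided exact binomial tests against eligible exonic bases (over 18), at 0.05. Gene lists and motifs were described only. The tests were tested on simulated data. Alternatives were other windows, the midpoint, a stricter threshold, other overlaps, noncoding genes left out and the relaxed list of 1 replicate alone, with the thresholded list of both still used to leave peaks out.

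Named genes were hosts of the 12 members of highest signal, the 8 with most peaks, the 8 densest with at least 5, the 8 best in both replicates, up to 3 per list by strongest peak, ceh-82, unc-119, and the hosts of the thresholded exonic peaks of lowest and highest signal. Y56A3A.22, dos-3 and C07A9.9 are named for their sequences. The members, lists and motifs were chosen with earlier results of these data known. Python 3.11.15, NumPy 2.4.6, SciPy 1.17.1, pandas 2.3.3 and matplotlib 3.10.9 were used.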

Additional observations from a re-analysis of the deposited data

How the results depend on the processing

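All 51 planned recovery comparisons and 96 planned comparisons of place kept direction and call, and 12 did not keep the call. The 96 include the 18 with the peak midpoint. These gave the same values as the summit throughout, so they add no check. The count of 5386 peaks in 4246 genes became 2124 in 1875 with signal above the pooled median, and ranged from 2922 to 5362 peaks and from 2563 to 4270 genes with single replicates.

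With windows of 2000 bp, exons of at least 600 bp (1.04) and chromosome II (0.924) no longer passed. With the stricter threshold the fourth part of the gene span (0.912) and exons from 150 to under 300 bp (0.926) did. With the relaxed list of 1 replicate alone, ratios ranged from 0.924 to 0.983 in the second part, 0.919 to 0.946 in the fourth, 0.930 to 0.941 for exons under 150 bp, 1.04 to 1.07 for those of at least 600 bp, and 0.895 to 0.956, 0.927 to 0.944 and 0.897 to 0.930 on chromosomes II, IV and V. The cause was not tested.

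The alternatives that follow were chosen after seeing the data. Cutting the list of replicate 2 to the length of replicate 1, and leaving out noncoding genes, changed no call. With only peaks recovered in both replicates, the second part (0.778), the third (0.812), 5′ untranslated sequence (2.01) and chromosomes II (0.857), IV (0.823), V (0.922) and X (1.23) no longer passed, on fewer peaks. Within signal classes, odds ratios are given against introns, promoter windows and elsewhere, in that order. In the first class they were 0.923, 0.957 and 0.899 in replicate 1, 0.982, 0.857 and 0.9 in replicate 2, and 0.876, 0.874 and 0.863 in both. In the second they were 0.878, 0.819 and 0.838, then 0.894, 0.928 and 0.983, then 0.616, 0.629 and 0.677. In the third they were 1.003, 0.930 and 1.02, then 0.906, 0.922 and 0.891, then 0.929, 0.811 and 0.895, so that replicate 1 turned against introns and elsewhere. In the fourth, replicate 2 against introns (0.847) and elsewhere (0.807) did not pass.

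No paired analysis was possible because there is 1 group. With 2 libraries of 1 line, no control list analysed and unknown depth, counts of peaks do not measure variation between cultures.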
